A study of Homo sapiens with 4 samples.

Results

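The MHC class I antigen processing genes described here are 9 named genes: B2M, HLA-E, HLA-F, TAP1, TAP2, TAPBP, PSMB8, PSMB9 and PSMB10. All probe sets annotated to them were taken, 20 of the 54675 on the array, for 9 of 19741 named genes. No member probe set was annotated to several genes. Of the 6 HLA probe sets, 4 were of type _x_at, a design whose probes can match related transcripts, so signal from other HLA genes in them is possible. TAP1, PSMB8, PSMB9 and PSMB10 had 1 probe set each.

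RNA came from stably transduced, puromycin-selected populations of the human lung adenocarcinoma lines CL1-5, an invasive subline, and CL1-0, its less invasive parent. The 4 groups were CL1-5 with G9a shRNA, CL1-5 with control shRNA, CL1-0 with HA-tagged G9a and CL1-0 with control vector, 1 Affymetrix array each. G9a, the product of EHMT2, methylates lysine 9 of histone H3. The title of the knockdown sample names 1 shRNA, and the sources used here do not give the promoters of the vectors. Without replicates no p-value can be given, and no difference was checked against replicate spread.

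MHC class I molecules show peptides from inside the cell to T cells and natural killer cells. The proteasome cuts proteins into peptides, and its immunoproteasome form carries the catalytic subunits PSMB8, PSMB9 and PSMB10 in place of PSMB5, PSMB6 and PSMB7. TAP1 and TAP2 form the pump that carries peptides into the endoplasmic reticulum, tapasin (TAPBP) bridges the pump to empty class I molecules, and B2M is the light chain shared by all class I heavy chains. Interferons induce most of these genes, in epithelial cells as well.

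The values are MAS5 signals on a linear scale. A ratio is the log2 of 2 signals after flooring at 3.35, the 25th percentile over the 4 arrays, and counts as measured where the brighter array reached 12.5, the median of all values. Ratios called relative are set against the median gene of the same comparison, which stood at a log2 ratio of 0.42 for the knockdown, -0.08 for HA-G9a and -0.01 for CL1-5 over CL1-0. Probe sets of the same gene, as a technical yardstick, gave log2 ratios with a pooled SD of 0.54, 0.51 and 0.65 in these comparisons in the same order, and of 0.30, 0.25 and 0.41 among probe sets reaching 84.2. EHMT2 followed the labels, with 28.1 in the knockdown against 376 in its control and 862 with HA-G9a against 420 with the vector.

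Markers of other cells were below 84.2 on every array, though many passed the filter of 12.5. Of 7 leukocyte markers 5 passed it on some array, the brightest being CORO1A at up to 66.5 in the CL1-0 vector, and the pan-leukocyte gene PTPRC read between 2.59 and 4.17 in its brightest probe set. Of 4 dendritic cell and macrophage markers 2 passed it, and their summed signal was 28.8, 17.8, 39.7 and 41.0 in CL1-5 with G9a shRNA, CL1-5 with control shRNA, CL1-0 with HA-G9a and CL1-0 with vector. Of 7 type II alveolar markers, the cell type given in the labels, 6 passed it. In the knockdown 1 of these, NKX2-1, was at least 2-fold lower, and 2, ABCA3 and NAPSA, at least 2-fold higher, with relative log2 ratios of -3.35, 1.13 and 1.14. The surfactant gene SFTPC read 29.8, 33.5, 6.72 and 21.3 on the same arrays in that order.

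PSMB9 was the member with the largest difference after the G9a knockdown. It encodes the immunoproteasome subunit that takes the place of the caspase-like PSMB6, and was measured by 204279_at. Its signal was 81.7 in the knocked-down CL1-5 cells against 296 in their control, 3.62-fold lower as deposited and 4.85-fold lower relative to the median gene. Its CL1-0 signals were 144 with HA-G9a and 122 with the vector, a relative log2 ratio of 0.32. The CL1-5 control array alone stood high, and the knockdown signal lay below those of both CL1-0 arrays. Of 13045 measured genes, 295 had a lower relative ratio than PSMB9 in the knockdown.

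TAP1, the first half-transporter of the peptide pump, read 261 in the knockdown against 308 in the control. Its CL1-0 signals were 152 with HA-G9a and 114 with the vector. Its relative log2 ratios were -0.66 in the knockdown and 0.50 with HA-G9a, neither reaching 2-fold. TAP1 and PSMB9 lie head to head on chromosome 6, with 487 bases between their starts in RefSeq (GRCh38.p14). Their upstream windows are shown because the 2 genes share this stretch while PSMB9 differed far more in the knockdown. Each window is the 250 bases before the start, written on the strand of its gene, and the windows overlap by 13 bases. Capitals mark matches to 4 short motifs that are described further on.
PSMB9, chr6:32853942-32854191, plus strand: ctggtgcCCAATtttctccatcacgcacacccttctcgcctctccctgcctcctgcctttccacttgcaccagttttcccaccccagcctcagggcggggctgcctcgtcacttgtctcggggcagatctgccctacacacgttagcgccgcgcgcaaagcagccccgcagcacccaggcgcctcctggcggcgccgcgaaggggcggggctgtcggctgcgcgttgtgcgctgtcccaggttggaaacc
TAP1, chr6:32853705-32853954, minus strand: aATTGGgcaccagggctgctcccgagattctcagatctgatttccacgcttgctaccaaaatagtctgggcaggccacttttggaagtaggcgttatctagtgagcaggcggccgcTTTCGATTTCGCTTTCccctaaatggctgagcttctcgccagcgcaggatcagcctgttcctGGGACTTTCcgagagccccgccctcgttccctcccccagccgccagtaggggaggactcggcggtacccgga

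PSMB8, the chymotrypsin-like immunoproteasome subunit, separated the cell lines and not the G9a arms. Its single probe set, 209040_s_at, read 156 in the knockdown against 140 in the CL1-5 control, and 1.73 with HA-G9a against 1.89 with the vector in CL1-0. Both CL1-0 values lay below the floor of 3.35. The CL1-5 control was therefore at least 41.9-fold brighter than the CL1-0 vector as deposited. Its exact ratio is set by the floor, and it passed the filter there through CL1-5 alone. In the knockdown the log2 ratio was 0.15 as deposited and -0.27 relative, within the spread between probe sets. No ratio could be given for HA-G9a, where both arrays were below the filter.

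PSMB10, the trypsin-like subunit, ran the other way from PSMB9 in the knockdown. Its probe set 202659_at read 185 in the knockdown against 76.3 in the control, 2.43-fold higher as deposited and 1.81-fold higher relative to the median gene. In CL1-0 it had 177 with HA-G9a and 124 with the vector, a relative log2 ratio of 0.60. It was thus above its control in both perturbed populations, although these changed G9a in opposite directions. The CL1-5 control was lowest of the 4 arrays. The upstream windows of PSMB8, which has 2 annotated starts, and PSMB10 are shown beside those above because the 3 immunoproteasome genes differed in their pattern over the arrays. PSMB10 lies on chromosome 16.
PSMB8 at the start nearer TAP1, chr6:32844680-32844929, minus strand: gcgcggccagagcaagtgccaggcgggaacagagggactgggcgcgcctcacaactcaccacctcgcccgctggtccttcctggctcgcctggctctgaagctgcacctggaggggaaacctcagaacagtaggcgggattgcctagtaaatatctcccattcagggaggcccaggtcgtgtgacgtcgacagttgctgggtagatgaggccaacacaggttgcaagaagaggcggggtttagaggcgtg
PSMB8 at the other start, chr6:32844048-32844297, minus strand: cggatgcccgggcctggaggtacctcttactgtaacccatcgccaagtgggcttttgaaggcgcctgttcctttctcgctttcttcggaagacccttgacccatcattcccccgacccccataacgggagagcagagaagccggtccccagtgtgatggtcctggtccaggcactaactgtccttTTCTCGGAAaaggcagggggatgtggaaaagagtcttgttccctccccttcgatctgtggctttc
PSMB10, chr16:67936851-67937100, minus strand: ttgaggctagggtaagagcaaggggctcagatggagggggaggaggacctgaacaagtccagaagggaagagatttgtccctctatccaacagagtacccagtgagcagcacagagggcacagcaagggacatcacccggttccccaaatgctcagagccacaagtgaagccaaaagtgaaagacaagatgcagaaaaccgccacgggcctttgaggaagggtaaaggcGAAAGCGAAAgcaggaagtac

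**Figure D1:**
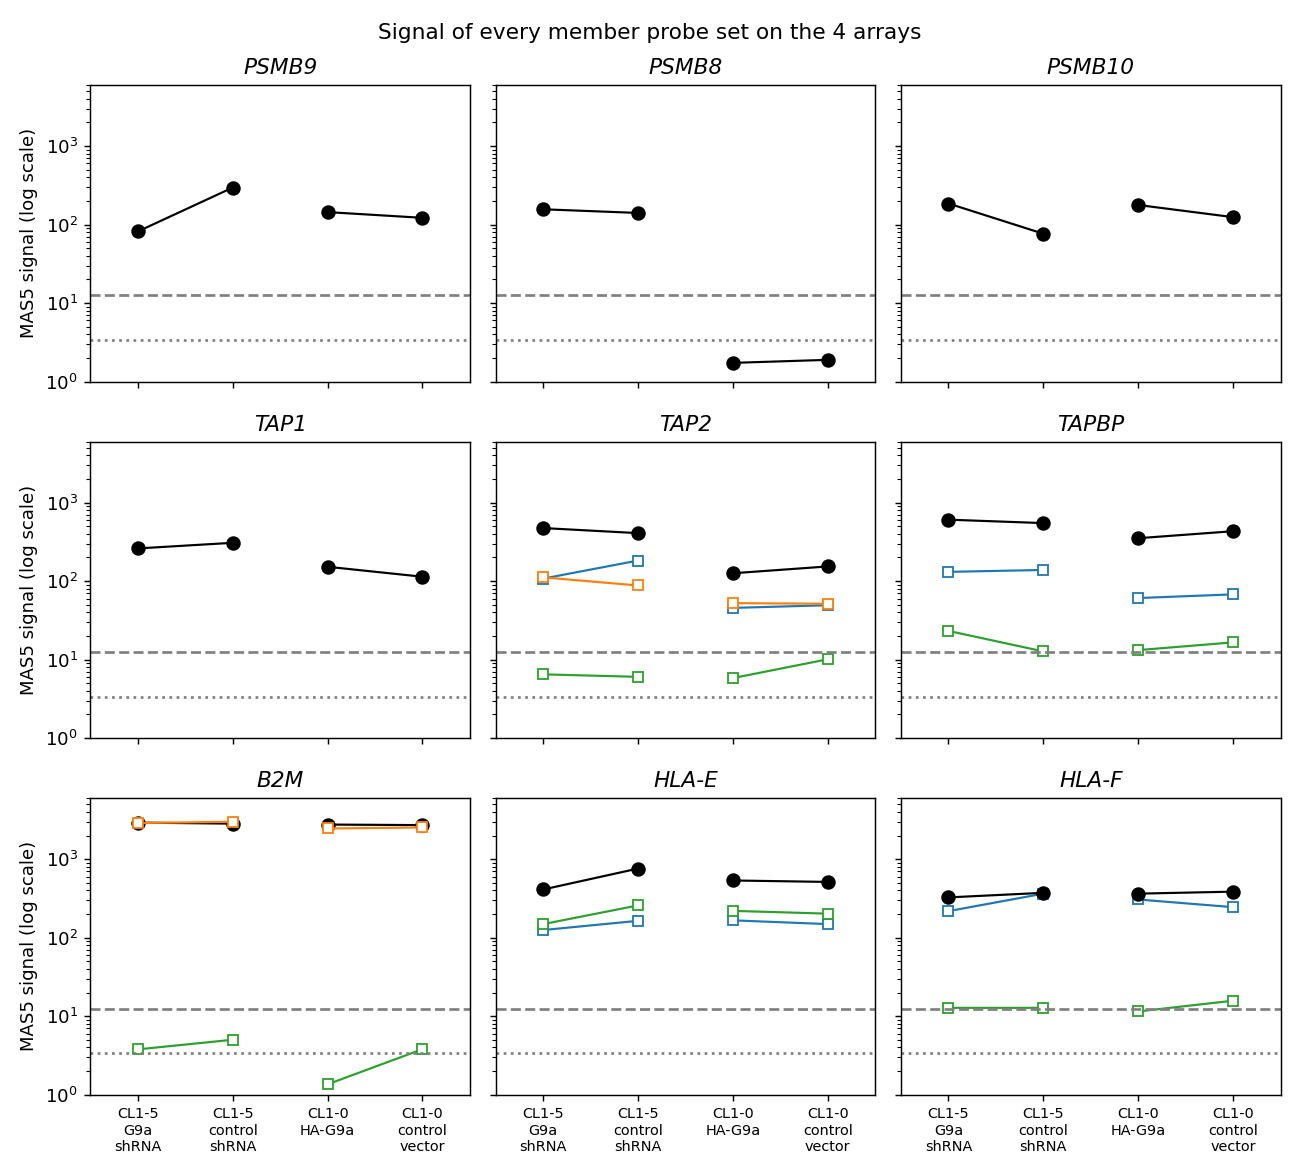
MAS5 signal (log axis) of each member probe set on the 4 arrays, 1 panel per gene, with lines joining the arrays of a cell line. Filled circles are the probe set that gave the gene's value, open squares the others, and the dotted and dashed lines are the floor (3.35) and the filter (12.5). PSMB8 lies below the floor on both CL1-0 arrays and PSMB9 is highest in the CL1-5 control.

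The constitutive counterparts of these subunits stayed within 2-fold of the median gene. PSMB5, which PSMB8 replaces, had relative log2 ratios of -0.44 in the knockdown and -0.17 in CL1-5 over CL1-0. PSMB6, which PSMB9 replaces, had -0.26 and -0.22, and PSMB7, which PSMB10 replaces, -0.25 and 0.19. Of 14 measured constitutive proteasome and assembly genes, none was 2-fold higher or lower in any of the 3 comparisons. Their median was 0.01 in the knockdown with a range of -0.44 to 0.33. PSMB9 and PSMB10 lay outside that range, and PSMB8, at -0.27, lay inside it. Of the 3 measured proteasome activator genes none passed 2-fold either. Over all measured genes 7.76% were that much lower and 8.13% higher in the knockdown. The shares were 3.74% and 5.46% with HA-G9a, and 13.2% and 12.6% in CL1-5 over CL1-0. A count of none in 3 is near these shares.

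TAP2, the partner of TAP1 in the pump, gave probe sets that disagreed in the knockdown. The brightest, 225973_at, read 474 in the knockdown against 408 in the control, and 126 with HA-G9a against 154 with the vector. The probe set 204769_s_at read 108 against 183 in the same CL1-5 arrays, a relative log2 ratio of -1.18, and 204770_at read 112 against 88.0, a ratio of -0.08. A range of 1.11 between them leaves the direction in the knockdown unsettled. All 3 measured TAP2 probe sets were higher in the CL1-5 control than in the CL1-0 vector, with relative ratios from 0.79 to 1.91.

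TAPBP, measured best by 208829_at, read 606 in the knockdown against 548 in the control. With HA-G9a it had 352, against 432 for the vector. Its relative log2 ratios were -0.27 and -0.21. In the knockdown its 3 probe sets ran from -0.50 to 0.45, so the direction is unsettled, and with HA-G9a all 3 were below 0. In CL1-5 over CL1-0 its 3 probe sets ran from -0.37 to 1.05.

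B2M was even over all 4 arrays. Its probe set 201891_s_at read 2922 in the knockdown, 2837 in the CL1-5 control, 2761 with HA-G9a and 2716 with the vector. A second bright probe set lay between 2460 and 2995. The third was dim, at 5.01 or less on every array. As deposited the knockdown ratio was 0.04, but relative to the median gene it was -0.38, because most genes were brighter on the knockdown array. Its upstream window is shown as that of a member with little difference between the arrays, which still holds the interferon and kB letters searched for.
B2M, chr15:44711267-44711516, plus strand: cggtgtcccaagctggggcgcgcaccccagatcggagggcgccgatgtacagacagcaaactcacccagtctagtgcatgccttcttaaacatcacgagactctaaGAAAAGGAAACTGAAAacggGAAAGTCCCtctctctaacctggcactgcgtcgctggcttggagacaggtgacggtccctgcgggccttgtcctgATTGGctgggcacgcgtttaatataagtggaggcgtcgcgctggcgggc

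HLA-E, a nonclassical heavy chain recognised by natural killer cell receptors, was lower after the knockdown in all 3 of its probe sets. The brightest, 200905_x_at, read 411 in the knockdown against 760 in the control, 1.85-fold lower as deposited and 2.47-fold lower relative to the median gene. The probe set 217456_x_at read 149 against 258, and 200904_at, which is not of the _x_at type, 125 against 164. Their relative ratios were -1.21 and -0.81, so 2-fold was reached only by the probe sets that may share signal with other HLA genes. With HA-G9a the 3 probe sets stood 0.14 to 0.24 above the vector on the relative log2 scale.

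HLA-F, another nonclassical heavy chain, showed a smaller difference. Its brightest probe set, 221875_x_at, read 326 in the knockdown against 373 in the control, and 364 with HA-G9a against 386 with the vector. The probe set 204806_x_at read 218 in the knockdown against 364 in the control, and 307 against 245 in the CL1-0 pair. The third, 221978_at, was close to the filter on every array, at 11.5 to 15.7. Relative ratios in the knockdown were -0.61, -1.16 and -0.42 in that order.

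Counted by gene, 2 of the 9 members, HLA-E and PSMB9, were at least 2-fold lower after the knockdown and none at least 2-fold higher, relative to the median gene. Over all measured genes 7.76% were that much lower and 8.13% that much higher. The median of the members was -0.38, against 0 for all measured genes by construction. As deposited, the count was 1 lower (PSMB9) and 1 higher (PSMB10), and over all genes 618 lower and 2198 higher in place of 1012 and 1060. B2M, TAP2, TAPBP and PSMB8 were below 0 relative to the median gene and above 0 as deposited, so their direction rests on the centring. HLA-E, HLA-F, TAP1 and PSMB9 were below 0 and PSMB10 above 0 on both scales.

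With HA-G9a in CL1-0 none of the 8 measured members was at least 2-fold higher or lower, where 5.46% of all measured genes were higher and 3.74% lower. All 8 also passed the stricter filter of 84.2, past which 124 of 7743 genes were higher and 63 lower. A count of none in 8 is near these shares. The relative ratios ran from -0.21 for TAPBP to 0.60 for PSMB10, with a median of 0.13. Among all member probe sets past the filter, 10 of 17 were above 0 and 7 below.

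**Figure D2:**
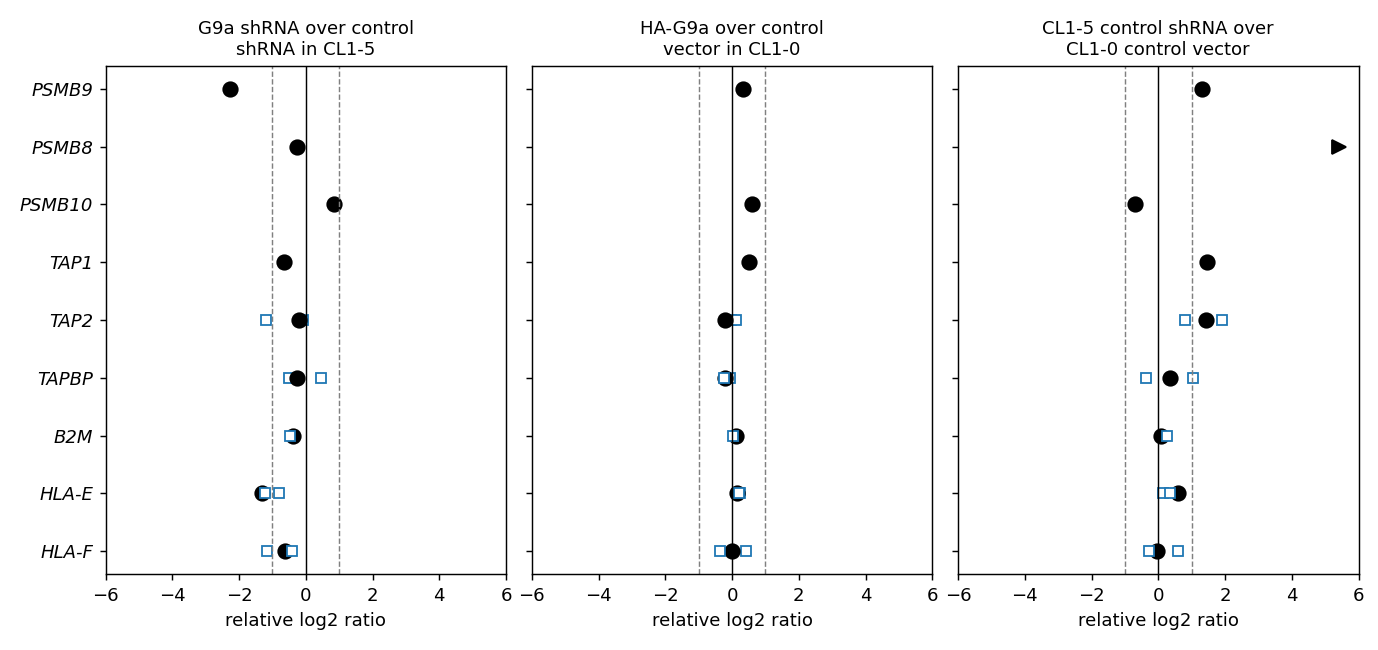
Relative log2 ratio (x axis) of each measured member probe set in the 3 comparisons, 1 panel each, with dashed lines at 2-fold. Filled symbols are the probe set that gave the gene's value, open squares the others, and the triangle marks PSMB8, whose CL1-0 signals were below the floor. PSMB9 lies at -2.28 in the knockdown, and every HA-G9a value is within 2-fold.

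Between the control populations, 4 of the 9 members were at least 2-fold brighter in CL1-5 with control shRNA than in CL1-0 with control vector, and none was at least 2-fold dimmer. Over all measured genes 12.6% were that much higher and 13.2% that much lower. The 4 were PSMB8, TAP1, TAP2 and PSMB9. TAP1 read 308 against 114, PSMB9 296 against 122 and TAP2 408 against 154, relative ratios of 1.45, 1.30 and 1.42. This comparison and the knockdown share the CL1-5 control array, on which PSMB9 was high.

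The 4 genes are consecutive protein-coding genes on chromosome 6 in RefSeq (GRCh38.p14), in the order TAP2, PSMB8, TAP1 and PSMB9. The flanking genes encode class II proteins. HLA-DOB, next to TAP2, read 12.1 in the CL1-5 control against 8.31 in the CL1-0 vector, below the filter. HLA-DMB, next to PSMB9, read 19.9 against 33.4, a relative ratio of -0.74, and HLA-DMA, beyond it, 12.0 against 63.4, a ratio of -2.39. HLA-F, HLA-E and TAPBP, also on chromosome 6 but outside the cluster, had ratios of -0.04, 0.58 and 0.36 by their brightest probe sets. Their measured probe sets ran from -0.29 to 0.58, 0.15 to 0.58 and -0.37 to 1.05 in that order. The last range overlaps that of TAP2, 0.79 to 1.91. Whether the place in the genome bears on the difference was not tested.

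Other heavy chains and class I-like genes were mostly below the median gene in the knockdown. Of 12 measured genes, 10 were below 0 relative to the median gene, and 2, HLA-G and FCGRT, at least 2-fold lower (median -0.69), where 7.76% of all genes were. As deposited 8 were below 0 and none reached 2-fold (median -0.27). HLA-B read 1030 in the knockdown against 1408 in the control, and HLA-C 1272 against 1695, each by its brightest probe set, for relative ratios of -0.87 and -0.84. The 4 HLA-C probe sets ran from -1.23 to -0.74. The 4 HLA-G probe sets lay between -1.35 and -0.45 in the knockdown. Under HA-G9a they disagreed in sign, between -0.65 and 0.61. All probe sets of HLA-B, HLA-C, HLA-G and HLA-J are of type _x_at, so these 4 values and those of HLA-E and HLA-F may share signal. FCGRT, the neonatal Fc receptor chain, which also pairs with B2M, read 51.2 against 92.9. The stress ligands MICA and MICB, which do not bind B2M, stood at 0.15 and 0.28.

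None of the loading and trimming factors passed 2-fold in the knockdown, where 7.76% of all measured genes were 2-fold lower and 8.13% higher. Of 9 measured genes, among them the chaperones CALR and CANX and the peptidase ERAP1, 5 were below 0 and 4 above relative to the median gene (median -0.14), while as deposited all 9 were above 0. ERAP2, a trimming peptidase, had signals of 31.6 with HA-G9a and 11.1 with the vector, a relative ratio of 1.60. It was the single gene of that list past 2-fold there on the relative scale. Over all measured genes 5.46% were that much higher and 3.74% that much lower there. ERAP2 passed the filter through HA-G9a alone, and its measured probe sets ran from 0.38 to 3.39. The CALR signals were 700 under HA-G9a and 1411 under the vector, which is -1.01 on the log2 scale as deposited, and its 3 probe sets had relative ratios of -0.93, -0.44 and -0.35.

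Among 13 measured regulators, NLRC5 and CREB1 were at least 2-fold lower in the knockdown and none higher (median -0.27), where 7.76% of all genes were lower. As deposited NLRC5 alone was lower and NFYB, a subunit of the CCAAT-binding factor NF-Y, was higher at a log2 ratio of 1.02, and the median was 0.15. NLRC5, the transactivator of class I genes, was dim, with 8.38 in the knockdown against 17.5 in the control and 10.5 with HA-G9a against 0.52 with the vector. CREB1, a factor of the class I promoter complex, read 229 against 398 in the knockdown, and its 7 probe sets ran from -1.21 to -0.62. IRF1, an interferon-induced activator, read 83.9 against 93.7 in its brighter probe set, a relative ratio of -0.58, and 34.2 against 6.83 in its dimmer one. RFX5, RFXANK and RFXAP, the subunits of the RFX complex that binds class I and class II promoters, were at least 2-fold lower in the CL1-5 control than in the CL1-0 vector, and NLRC5 at least 2-fold higher. Between these 2 arrays 13.2% of all measured genes were that much lower and 12.6% that much higher. NLRC5 passed the filter through the CL1-5 control alone, here and in the knockdown, and its vector signal lay below the floor of 3.35.

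Of 9 measured interferon receptor and kinase genes, 2 were at least 2-fold lower in the knockdown and none higher (median -0.30). Over all measured genes 7.76% were that much lower. As deposited none reached 2-fold and the median was 0.12, so the calls and the sign of the median rest on the centring. The 2 called genes, JAK2 and IRF9, were below 0 on both scales. JAK2, a kinase of the interferon gamma receptor, read 69.0 in the knockdown against 113 in the control. IRF9, a subunit of the interferon-induced factor ISGF3, read 133 against 219. In the comparison of the lines IRF9 and SOCS1, a feedback inhibitor, were at least 2-fold higher in CL1-5 and none lower. Over all measured genes 12.6% were that much higher there, and another SOCS1 probe set ran the other way. Of 11 class II genes 6 were measured in the knockdown. Of these CD74, the invariant chain, was at least 2-fold lower at 4.72 against 13.7, where 7.76% of all measured genes were. CD74 passed the filter through the control array alone, and its other probe sets did not pass it. HLA-DOA was 2-fold higher as deposited only, at a log2 ratio of 1.09. Many class II signals were dim, but HLA-DMA read 61.2 with HA-G9a and 63.4 with the vector in CL1-0.

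Of 5 leukocyte markers measured in the knockdown, 4 were below 0 relative to the median gene and 1 above. LAPTM5 read 21.9 in the knockdown against 50.0 in the control and LCP1 15.6 against 23.4, both at least 2-fold lower relative to the median gene, and LAPTM5 alone as deposited. Over all measured genes 7.76% were that much lower. CORO1A at -0.76 and CSF1R at -0.52 did not reach 2-fold, and CD3E stood at 0.30. The summed signal of the 7 markers was 99.6 in the knockdown, 134 in the CL1-5 control, 96.8 with HA-G9a and 116 with the vector. Their part in the result was not tested.

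**Figure D3:**
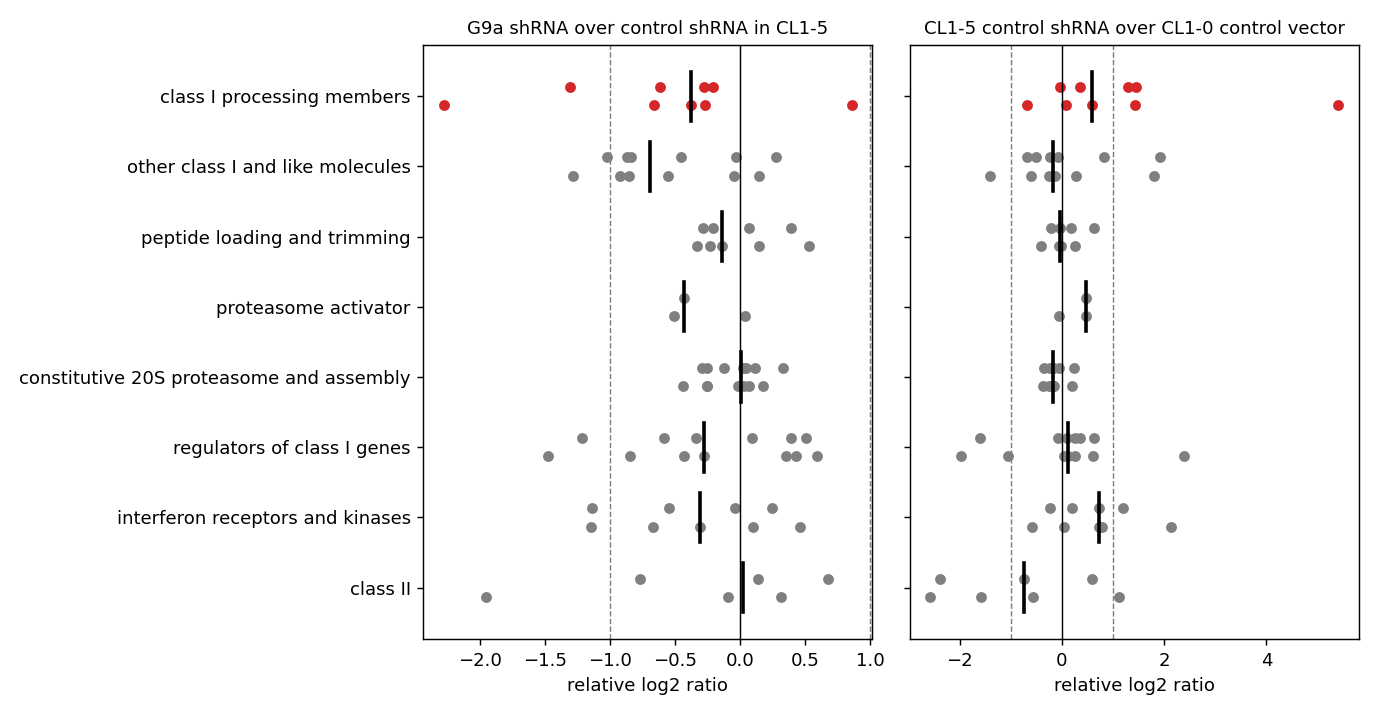
Relative log2 ratio (x axis) of the measured genes of each list in the knockdown (left) and in CL1-5 control over CL1-0 control (right). Each point is a gene, black bars are list medians, dashed lines mark 2-fold and the 9 members are in red. The constitutive proteasome genes lie between -0.44 and 0.33 in the knockdown, inside the spread of the members.

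By pattern over the 3 comparisons, the genes nearest to TAP1 among 8883 bright ones were RANBP6, ETV5, VCL, CSRP1 and VASP. Their Euclidean distances in relative log2 ratio were 0.14 to 0.16. The nearest other member was TAP2, at 0.84 and place 463, and PSMB9 stood at 1.64 and place 3636. With 4 arrays, likeness of this kind is a description only.

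The RefSeq promoter table held 10 windows for 8 members, all except HLA-E, and 35116 windows in all. The 4 motifs were chosen after values or sequences had been seen, so member counts set beside the shares of all windows are descriptive only. Searched on both strands, the core of the interferon-stimulated response element, GAAA and GAAA with any 2 bases between, occurred in 6 member windows, those of TAP1 (nearer PSMB9), TAP2, TAPBP, PSMB10, B2M and HLA-F, and in 3.02% of all windows. In TAP1, TAPBP and B2M a pair of such matches overlapped. The GAS-like letters TTCNNNGAA occurred in 2 member windows, at the other starts of PSMB8 and TAP1, and in 6.57% of all. The kB motif, shortened to GGGACTTTC, occurred in TAP1 and B2M and in 0.325% of all. CCAAT occurred in 4 member windows and 32.0% of all, and its match in TAP1 and PSMB9 is the same site in the overlap. The 250 bases of PSMB9 held no match to the other 3, and those of B2M held all but the GAS-like letters. The interferon and kB matches of TAP1 lie in the 487 bases between the TAP1 and PSMB9 starts. They fall beyond the 250 bases searched for PSMB9, so the cut of the window assigns them to TAP1 alone.

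**Figure D4:**
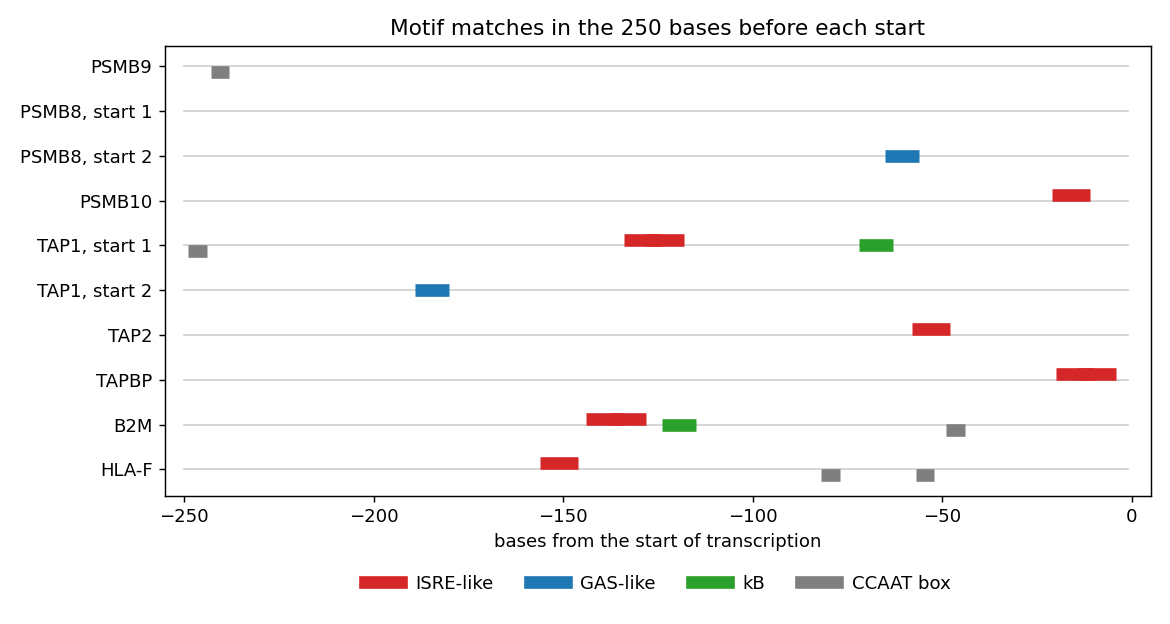
Position of motif matches in the 250 bases before each annotated start of 8 members, as bases from the start (x axis). Red bars are the interferon response core, blue TTCNNNGAA, green GGGACTTTC and grey CCAAT, on either strand. Within these 250 bases PSMB9 and the first start of PSMB8 hold no red, blue or green bar.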

How the data were processed

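The authors' deposited values are linear intensities, 1 for each probe set on each array. MAS5 is the only tool named, per the submitters' processing notes, and the sources used here do not give its settings, scaling target or detection calls. Per the labels' protocols, RNA was column-extracted and biotinylated cRNA was hybridised. The arrays were not at one level: median signals were 14.9 in the knockdown, 11.3 in the CL1-5 control, 12.3 with HA-G9a and 11.7 with the vector. Precision is limited by the number of arrays.

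Gene names came from the array's annotation table, and symbols were updated by Entrez identifier against RefSeq (GRCh38.p14), which matched 41043 of 41097 single-gene probe sets. Another 1801 named several genes and 11777 were unlisted. 58 probe sets of Y-linked genes or XIST were left out. Where a gene had several single-gene probe sets, the one brightest on average gave its value. Ratios used a floor at the 25th percentile, a filter at the 50th and a 2-fold threshold, untested. All 9 members and EHMT2 were named, with genes of 7 pathway and 3 marker lists. The 5 genes nearest to TAP1 were named by distance. Every measured member probe set is plotted by sample and by ratio. Members and lists were chosen with earlier results of these data known. The neighbours of the TAP cluster and the 4 motifs were chosen after values or sequences had been seen. The ratio step was tested on simulated data with little noise and changes planted in bright genes only. That test cannot speak for calls at lower signals. Python 3.11.15, pandas 2.3.3 and NumPy 2.4.6 were used, and 9 alternatives were tried.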

Additional observations from a re-analysis of the deposited data

How the results depend on the processing

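No paired analysis was possible because each group held 1 array and the labels give no replicate numbers. Under the 9 alternatives, every measured member value stayed within the spread between probe sets in the knockdown (80 values) and HA-G9a (71) comparisons. Leaving out the centring shifts each knockdown value by 0.42, so that alternative could not pass the spread of 0.54. The shift is larger than the 0.30 among probe sets reaching 84.2, and it turned the sign of B2M, TAP2, TAPBP and PSMB8. The floor at the 10th percentile changed no member value in these comparisons. TAP1, PSMB8, PSMB9 and PSMB10, with 1 probe set each, could not change with the choice of probe set except through the centre. Without _x_at and _s_at probe sets HLA-E moved from -1.31 to -0.83, further than 0.30. HLA-F with HA-G9a then moved from -0.002 to -0.37, by a dim probe set. In CL1-5 over CL1-0, 78 of 80 values stayed within the spread. The exceptions were PSMB8, at 6.23 with a floor at the 10th percentile and 3.14 with 16 added in place of a floor. The knockdown count of 2 members at least 2-fold lower and 0 higher became 1 and 1 as deposited without centring, and 1 lower without _x_at and _s_at probe sets where another exists, since HLA-E then read -0.83. The other counts of members, and the medians, stayed within 1.5 times or the same spread. The knockdown median ranged from -0.43 to 0.04. PSMB9 ranged from -2.30 to -1.86 and PSMB10 from 0.78 to 1.28.

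Counts over all genes moved more. In the knockdown 1012 lower and 1060 higher became 618 and 2198 as deposited, 648 and 409 with 16 added, 437 and 410 with the stricter filter and 1569 and 1675 with none. With HA-G9a 479 and 699 became 81 and 189, 63 and 124, and 1095 and 1225 under the last 3 of these. Between the lines 1704 and 1630 became 929 and 1064 with 16 added and 786 and 851 with the stricter filter. Signals near the floor limit PSMB8 in CL1-0, NLRC5 and several class II genes.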

Other observations

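PSMB8-AS1, the antisense neighbour of PSMB8, was looked up after the PSMB8 values had been seen. Its brighter probe set read 19.1 in the knockdown and 9.60 in the CL1-5 control, against 13.8 with HA-G9a and 11.0 with the vector. It was dim on all arrays and did not separate the lines as PSMB8 did, with a relative log2 ratio of -0.18 for CL1-5 control over CL1-0 vector.

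SOCS1 gave probe sets that disagreed between the lines. The brightest read 41.5 in the CL1-5 control against 9.54 in the CL1-0 vector, and another 4.03 against 17.4.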
